A study of Homo sapiens with 8 samples.

Results

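Dimethylation of lysine 4 of histone H3 (H3K4me2) was mapped by chromatin immunoprecipitation and sequencing in RD cells, a long-established line grown from a human rhabdomyosarcoma, a tumour of the muscle lineage. The regions described here are 1225 peaks of the pooled list of cells given a Silencer Select siRNA, a single construct, against LSD1 (siLSD1). They were chosen by their overlap with 2 or more peaks of the pooled list of cells given a control siRNA (siCtrl). Each of them thus runs as 1 peak across sequence that the pooled control list left without a peak between neighbouring peaks. They make up 2.15% of the 56860 siLSD1 peaks on chromosomes 1 to 22 and X. The reverse class holds the 1525 pooled siCtrl peaks that overlap 2 or more pooled siLSD1 peaks, or 3.37% of 45219. Both siRNAs were given by reverse transfection with a lipid reagent and all 8 samples had new medium after 8 hours and harvest after 96 hours. Each siRNA had 2 ChIP libraries, which the submitters call biological replicates, and 2 input libraries, for which no list was analysed here. The pooled lists decided both classes, so the counts, gap lengths and library values below are descriptions without a test, and the libraries hold the same reads as the pools. Read depth is unknown for all lists. The 4 library lists held 33878 to 50587 peaks over 70.1 to 104 Mb, both siLSD1 lists being longer than both siCtrl lists, and the loss of LSD1 itself was not measured in these data.

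LSD1, encoded by KDM1A, takes methyl groups off mono- and dimethylated lysine 4 of histone H3, most often as part of the CoREST repressor complex. H3K4me2 marks the nucleosomes around active and poised promoters and enhancers, and it commonly dips where a nucleosome is missing, as at a start site or a bound enhancer. A peak caller may therefore report one marked element as neighbouring peaks with a short unmarked stretch between them, or as a single peak. The mark can also cover long stretches at developmental gene clusters such as the HOX genes.

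By count of joining peaks, joining after siLSD1 was not the more frequent direction. The siLSD1 list joined neighbours of the siCtrl list at 1225 peaks, and the siCtrl list joined neighbours of the siLSD1 list at 1525, a ratio of 0.803. The label "joined after knockdown" thus names the smaller of both classes by count. The ratio was 0.495 (380 against 768 peaks) in the upper 50% of each list by score, 0.960 with the 45219 top-scoring peaks of each pooled list, and 1.84 (678 against 369 peaks) when neighbours less than 500 bp apart had first been merged in each list. Most members joined 2 control peaks (1176 members), 45 joined 3, and 4 joined 4. Summed over members, 2503 neighbours were joined, or 5.54% of the number of control peaks (45219). A control peak under 2 members counts in each of them. Counted in the same way, the reverse class joined 3088 neighbours, or 5.43% of the number of siLSD1 peaks (56860). Set against the number of peaks that could be joined, both directions were thus close.

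A gap is sequence without a called peak between neighbouring peaks of the other pooled list, and it need not lack the mark. The members closed 1278 gaps. These were 2.83% of the 45196 gaps between neighbouring siCtrl peaks, and the reverse class closed 1563, or 2.75%, of the 56837 gaps between siLSD1 peaks. The gaps were short. The median closed gap was 144 bp (exact 95% interval of the median 125 to 160 bp), with a 10th percentile of 14 bp, a 90th percentile of 926.2 bp and a range of 1 to 5766 bp. In the reverse class the median was 97 bp (89 to 105 bp) and the 90th percentile 403.6 bp. The closed gaps summed to 450 kb, or 6.82% of the length of the joining peaks, against 282 kb and 4.35% in the reverse class.

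In the pooled lists, short and long gaps behaved differently. Of the siCtrl gaps under 100 bp, 536 of 901 (59.5%, exact 95% interval 56.2 to 62.7%) were closed in the siLSD1 list, and of the siLSD1 gaps of that length 792 of 1365 (58.0%, 55.4 to 60.7%) were closed in the siCtrl list. From 100 to 250 bp the shares were 37.2% (33.7 to 40.7%) and 34.2% (31.6 to 36.8%). Up to 250 bp the intervals of both directions thus overlapped. From 250 to 500 bp they no longer did, with 25.8% (22.8 to 29.0%) of siCtrl gaps and 16.2% (14.2 to 18.3%) of siLSD1 gaps closed. From 500 to 1000 bp, 139 of 1017 siCtrl gaps (13.7%) and 76 of 1752 siLSD1 gaps (4.34%) were closed. From 1000 to 2000 bp these were 77 of 1666 (4.62%) and 27 of 2719 (0.993%). Gaps of 2000 bp or more were closed at 39 of 40058 places (0.0974%) after siLSD1 and at 6 of 48396 (0.0124%) in the reverse direction. The intervals count gaps as independent and cover counting error only, within 1 pooled list per siRNA. In all, 255 of 1278 closed gaps were 500 bp or longer in the joined class and 109 of 1563 in the reverse class, a ratio of 2.34.

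**Figure D1:**
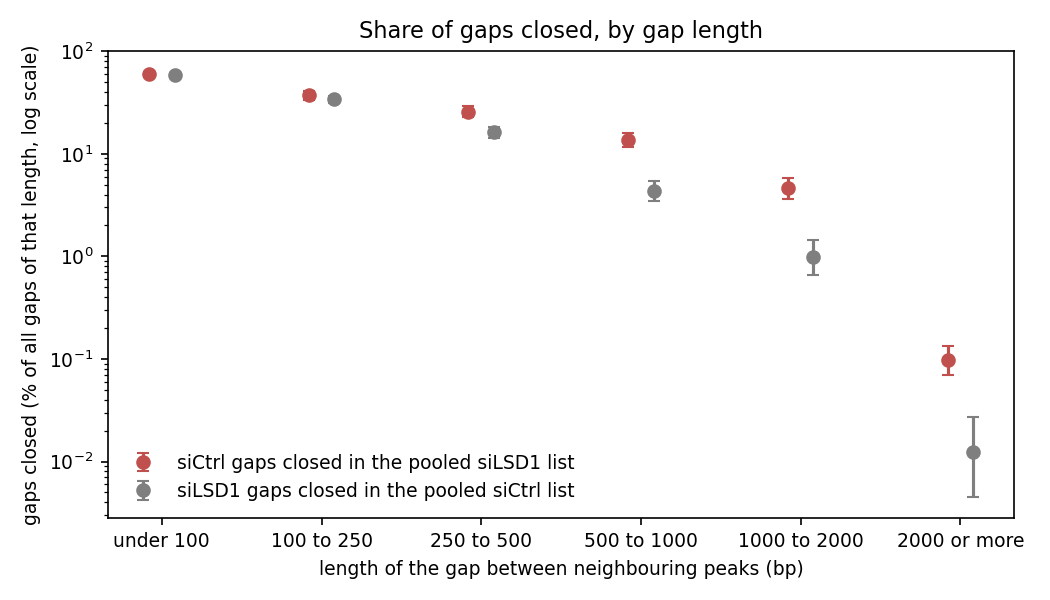
Share of the gaps between neighbouring pooled peaks that a single pooled peak of the other siRNA ran across (log axis, percent), by gap length in bp; points are shares and bars exact 95% binomial intervals. Shares of both directions are close under 250 bp (59.5% and 58.0% under 100 bp) and apart above it (4.62% and 0.993% from 1000 to 2000 bp).

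The single libraries were then read at the same gaps. A library closed a gap when 1 of its own peaks overlapped the pooled siCtrl peak on either side. siLSD1 replicate 1 closed 404 of the 1278 gaps (31.6%) and siLSD1 replicate 2 closed 665 (52.0%). siCtrl replicate 1 closed 12 (0.939%) and siCtrl replicate 2 closed 78 (6.10%). Both siLSD1 libraries thus lay above both siCtrl libraries, as the choice of members makes likely, with a mean of 41.8 ± 14.4% (SD, n = 2) against 3.52 ± 3.65% (SD, n = 2). Over all 45196 gaps of the pooled siCtrl list, the same libraries closed 0.931%, 1.56%, 0.0487% and 0.285%, in that order. The reverse class mirrored these values. siCtrl replicates 1 and 2 closed 26.0% and 62.5% of its 1563 gaps and siLSD1 replicates 1 and 2 closed 1.60% and 4.86%, against 0.728%, 1.82%, 0.106% and 0.253% of all 56837 gaps of the pooled siLSD1 list. In both classes the replicate 2 library of the joining siRNA closed more gaps than its replicate 1.

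**Figure D2:**
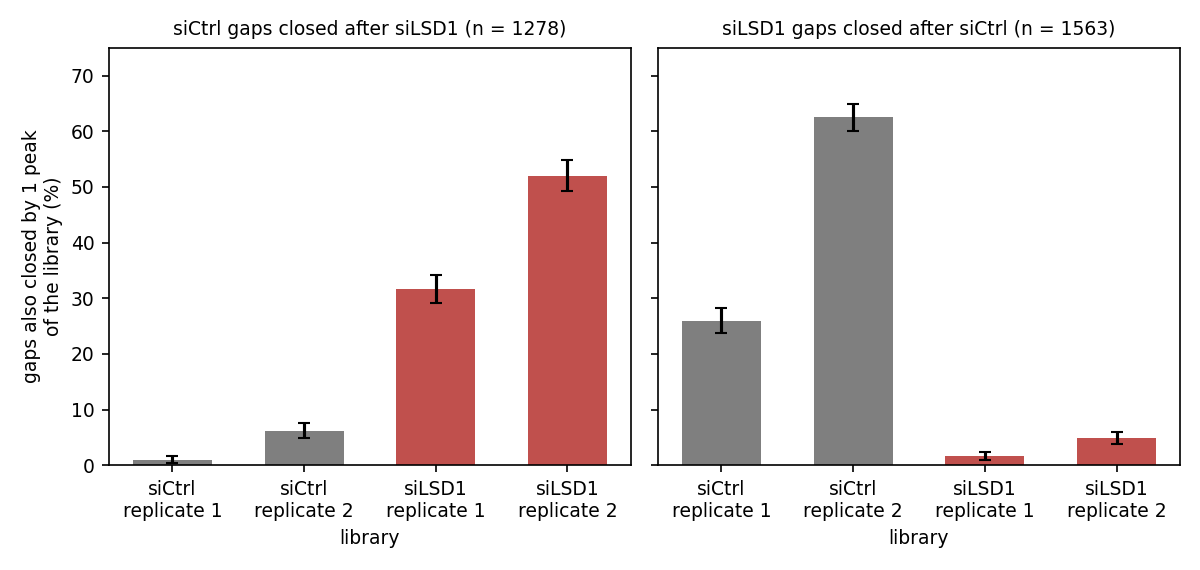
Percent of the closed gaps that 1 peak of each library also ran across, for the 1278 siCtrl gaps closed in the pooled siLSD1 list (left) and the 1563 siLSD1 gaps closed in the pooled siCtrl list (right); bars are shares and whiskers exact 95% binomial intervals. The joining siRNA's replicate 2 is highest in each panel (52.0% and 62.5%).

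Joining seen in both replicates was the exception. Both siLSD1 libraries closed 247 gaps (19.3%), 1 of them alone closed 575 (45.0%) and neither closed 456 (35.7%). Over all 45196 siCtrl gaps, closure in both was not counted, but it cannot exceed the 421 (0.931%) that siLSD1 replicate 1 closed. Of those closed by 1 alone, 418 were closed by replicate 2 and 157 by replicate 1. The gaps that both closed were short, with a median of 88 bp, and those that neither closed were longer, with a median of 250 bp. Taken by member, all gaps were closed in siLSD1 replicate 1 at 374 peaks (30.5%), in replicate 2 at 626 (51.1%) and in both at 225 (18.4%). At 200 members (16.3%) every gap was closed in both siLSD1 libraries and none in a siCtrl library, a pattern that the choice of members makes likely. The reverse class had 260 such peaks of 1525, a share close to that of the members.

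Where a library did not close a gap, it usually had the neighbours as separate peaks, except in siCtrl replicate 1. siLSD1 replicate 1 had a peak at both neighbours but none across the gap in 655 cases (51.3%), and siLSD1 replicate 2 in 497 (38.9%). In siCtrl replicate 2 this was so for 1014 gaps (79.3%). siCtrl replicate 1, the shortest list, showed it at 625 (48.9%) and had a peak at only 1 of both neighbours at 496 (38.8%). At 145 gaps (11.3%) it had a peak at neither neighbour. At 489 gaps (38.3%) siLSD1 replicate 1 had no peak sequence in the gap and siLSD1 replicate 2 at 259 (20.3%), against 1242 (97.2%) and 1104 (86.4%) in siCtrl replicates 1 and 2. Peaks of siLSD1 replicates 1 and 2 covered 52.1% and 66.4% of the summed gap length, and peaks of siCtrl replicates 1 and 2 covered 1.07% and 3.71%, a measure to which long gaps add most. For gaps of 500 bp or more the values were 54.8% and 65.8% against 0.663% and 1.82%. Of these 255 long gaps, 163 (63.9%) held peak sequence of both siLSD1 libraries and of neither siCtrl library. The choice of members makes this pattern likely, and its share over all siCtrl gaps of that length was not counted. In the reverse class 51 of 109 long gaps (46.8%) held peak sequence of both siCtrl libraries and of neither siLSD1 library.

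Joins between the single library lists show the spread between replicates. Peaks of a siLSD1 library joined 2 or more peaks of a siCtrl library at 1445 places for replicate 1 over 1, 895 for 1 over 2, 2218 for 2 over 1 and 1373 for 2 over 2. In the reverse direction siCtrl replicate 1 joined peaks of siLSD1 replicates 1 and 2 at 2307 and 1126 places, and siCtrl replicate 2 at 3858 and 2170. Replicates of 1 siRNA joined each other's peaks in a like range. siCtrl replicate 2 joined siCtrl replicate 1 at 2539 places and was joined by it at 627, and siLSD1 replicate 2 joined siLSD1 replicate 1 at 3498 and was joined by it at 1181. The mean was 1483 ± 547.6 joins (SD over 4 pairs) for siLSD1 over siCtrl and 2365 ± 1126 for the reverse, a ratio of 0.627. The pairs share libraries. The ratio was 1.07 without siCtrl replicate 2 and 1.09 without siLSD1 replicate 1, so its direction rested on these libraries. It was 0.376 without siCtrl replicate 1 and 0.380 without siLSD1 replicate 2.

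**Figure D3:**
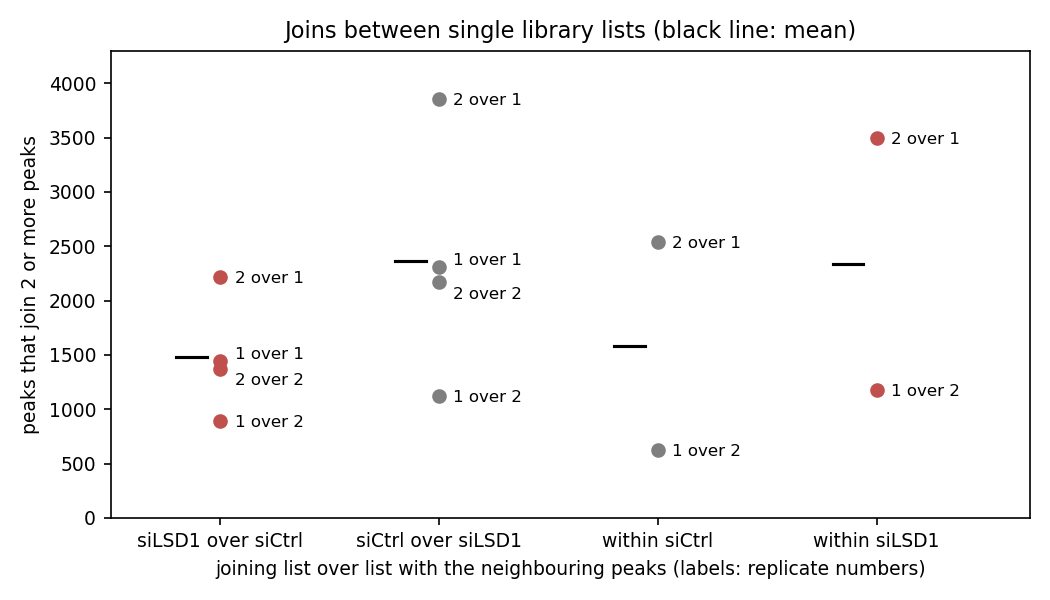
Number of peaks of 1 library list that overlap 2 or more peaks of another, for all ordered pairs of the 4 libraries; each point is a pair, labelled with the replicate numbers, and the black line is the mean of the column. Pairs within an siRNA (627 to 3498) spread as widely as pairs across the siRNAs (895 to 3858).

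The excess at long gaps was also read in these pairs. Of gaps of 500 to 2000 bp, siLSD1 replicate 1 closed 7.89% in siCtrl replicate 1 and 4.31% in siCtrl replicate 2, and siLSD1 replicate 2 closed 13.9% and 5.89%. In the reverse direction siCtrl replicate 1 closed 3.37% and 1.43% of such gaps in siLSD1 replicates 1 and 2, and siCtrl replicate 2 closed 10.7% and 3.71%. The share was thus higher for siLSD1 over siCtrl in each pair except siLSD1 replicate 1 with siCtrl replicate 2. Within the siRNAs the shares ran from 0.768% (siCtrl replicate 1 over 2) to 13.2% (siCtrl replicate 2 over 1), as wide as the differences across them. With libraries of the same number, long closed gaps counted 163 against 143 for replicates 1 and 175 against 141 for replicates 2. The ratios were 1.14 and 1.24 where the pooled lists gave 2.34. None of these ratios of counts allows for the number of gaps at hand. Gaps of 500 to 2000 bp numbered 1901 in siCtrl and 4090 in siLSD1 replicate 1, and 2735 and 3642 in replicates 2. As shares of these, the same pairs gave 7.89% against 3.37% and 5.89% against 3.71%. Gaps under 100 bp also varied by pair. Here siLSD1 over siCtrl gave 60.6% against 60.7% in reverse for replicates 1, and 58.3% against 69.9% for replicates 2. The values were 38.2% against 82.8% for siLSD1 replicate 1 with siCtrl replicate 2. For siLSD1 replicate 2 with siCtrl replicate 1 they were 83.0% against 42.2%. The near-equal shares of short gaps in the pooled lists were thus not seen in each pair.

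Members were broad and high in their list, and so was the reverse class. The members' median width was 4623 bp, against 1837 bp for all pooled siLSD1 peaks, and 1090 of them (89.0%) lay in the upper part of the list by score, above the 50th percentile. The siCtrl peaks of the reverse class had a median width of 3837 bp against 1913 bp for their list, and 1317 of them (86.4%) lay above the 50th percentile. Breadth is partly built into the rule. Among siLSD1 peaks of 12 kb or more, 65 of 126 (51.6%) were members, and among siCtrl peaks that broad 18 of 75 (24.0%) belonged to the reverse class. Of siLSD1 peaks from 2 to 4 kb, 372 of 18955 (1.96%) were members, against 691 of 15994 (4.32%) in the reverse class. The narrowest siLSD1 peaks, under 2 kb, gave 108 members of 31577 (0.342%).

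The joined neighbours of each member were sorted by width and by score, so a difference between them is built in. The median width was 2838 bp for the wider and 1528 bp for the narrower control peak of a member, against 1913 bp for the control list as a whole. In the reverse class these widths were 2606 and 1544 bp. The higher neighbour had a median score at the 70.1 percentile of the control list and the lower neighbour at the 33.3 percentile. Of the closed gaps, 902 (70.6%) had their midpoint in the central 50% of the joining peak, as had 1149 (73.5%) in the reverse class. The outer edges of the members moved both ways from the span of their neighbours, with a signed median change of 69 bp summed over both ends, and 682 members (55.7%) were longer than the span. At 457 members (37.3%) the siLSD1 peak ran past both outer edges and at 234 (19.1%) past neither. For the 37487 peaks that paired with exactly 1 peak in each list, the siLSD1 peak was wider by a median of 131 bp. It was the wider one in 67.4% of these pairs, a larger share than the 55.7% of members. The siCtrl peaks of the reverse class were mostly shorter than the span they joined, with a median change of -255 bp. Of them 29.6% were longer than the span, beside 32.5% of the pairs in which the siCtrl peak was the wider one.

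Part of both classes consisted of staggered edges. At 291 members (23.8%) a joined control peak was itself a siCtrl peak that joined siLSD1 peaks, so the lists drew their borders at different places along a marked stretch. Without them 934 members and 1236 peaks of the reverse class were left. The rule asked for an overlap of 1 bp, counted with starts taken as numbered from 0, which the files do not state, so the members at its edge rest on that reading. The members just inside it were in 4p16.3, chromosome 4 from 1242819 to 1244867, and in 11q13.2, chromosome 11 from 67978992 to 67980441, where the second control peak was met by 1 bp. Just outside it, siLSD1 peaks in 5q21.3 (chromosome 5 from 106722485 to 106726069) and 13q32.3 (chromosome 13 from 100152512 to 100153687) touched a second control peak with 0 bp of overlap. The second overlap was under 100 bp at 162 members (13.2%), and 514 other siLSD1 peaks missed a second control peak by less than 100 bp.

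The longest closed gap, 5766 bp, lay in 2p11.2 on chromosome 2. The siLSD1 peak ran from 85631789 to 85641924 over control peaks of 1911 and 2089 bp. Of this stretch, peaks covered 3.40 kb in each siCtrl library, 9.19 kb in siLSD1 replicate 1 and 9.47 kb in siLSD1 replicate 2. The gap itself held 0 bp of peak in both siCtrl libraries. The siLSD1 libraries covered 5424 and 5201 bp of it, mostly by an additional peak between the neighbours, so neither library closed the gap with 1 peak. The next longest gap, 4837 bp in 20q12, sat in a siLSD1 peak on chromosome 20 from 39671514 to 39688791, and peaks of the siLSD1 replicates filled 3951 and 4658 bp of it, those of both siCtrl replicates 0 bp. Covered length over the whole peak was 4.82 ± 2.38 kb after siCtrl and 13.4 ± 1.68 kb after siLSD1 (SD, n = 2 each), without overlap.

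In 6q14.3 a siLSD1 peak on chromosome 6 from 86157258 to 86176220 closed gaps of 4361 and 3431 bp. Its covered length was 4.88 and 9.64 kb in siCtrl replicates 1 and 2 and 15.3 and 17.1 kb in siLSD1 replicates 1 and 2. In 20q13.33, chromosome 20 from 62177659 to 62187161, 3940 bp were closed, and the siCtrl libraries had 4.39 and 5.17 kb against 7.74 and 8.82 kb. In 1q21.3 a siLSD1 peak on chromosome 1 from 150538847 to 150553625 closed 3641 bp, and covered length was 9.19 ± 1.54 kb after siCtrl and 13.4 ± 0.479 kb after siLSD1 (SD, n = 2 each), without overlap. Its own score was low, 132.60 or the 33.3 percentile, although it joined 2 control peaks with scores of 1687.59 and 2079.93. In 6p21.31, chromosome 6 from 34205222 to 34218200, gaps of 3523 and 1953 bp were closed, and covered length was 6.54 and 6.96 kb against 10.1 and 10.8 kb. At each of these 6 longest joins both siLSD1 libraries had more covered sequence than both siCtrl libraries. They were chosen by the longest gaps between the pooled lists of the same reads, so this direction is largely built in. Over all members, peaks covered 55.8% and 74.0% of the length in siCtrl replicates 1 and 2. In siLSD1 replicates 1 and 2 these shares were 79.2% and 86.0%. At none of the 6 did a single library peak close the longest gap.

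**Figure D4:**
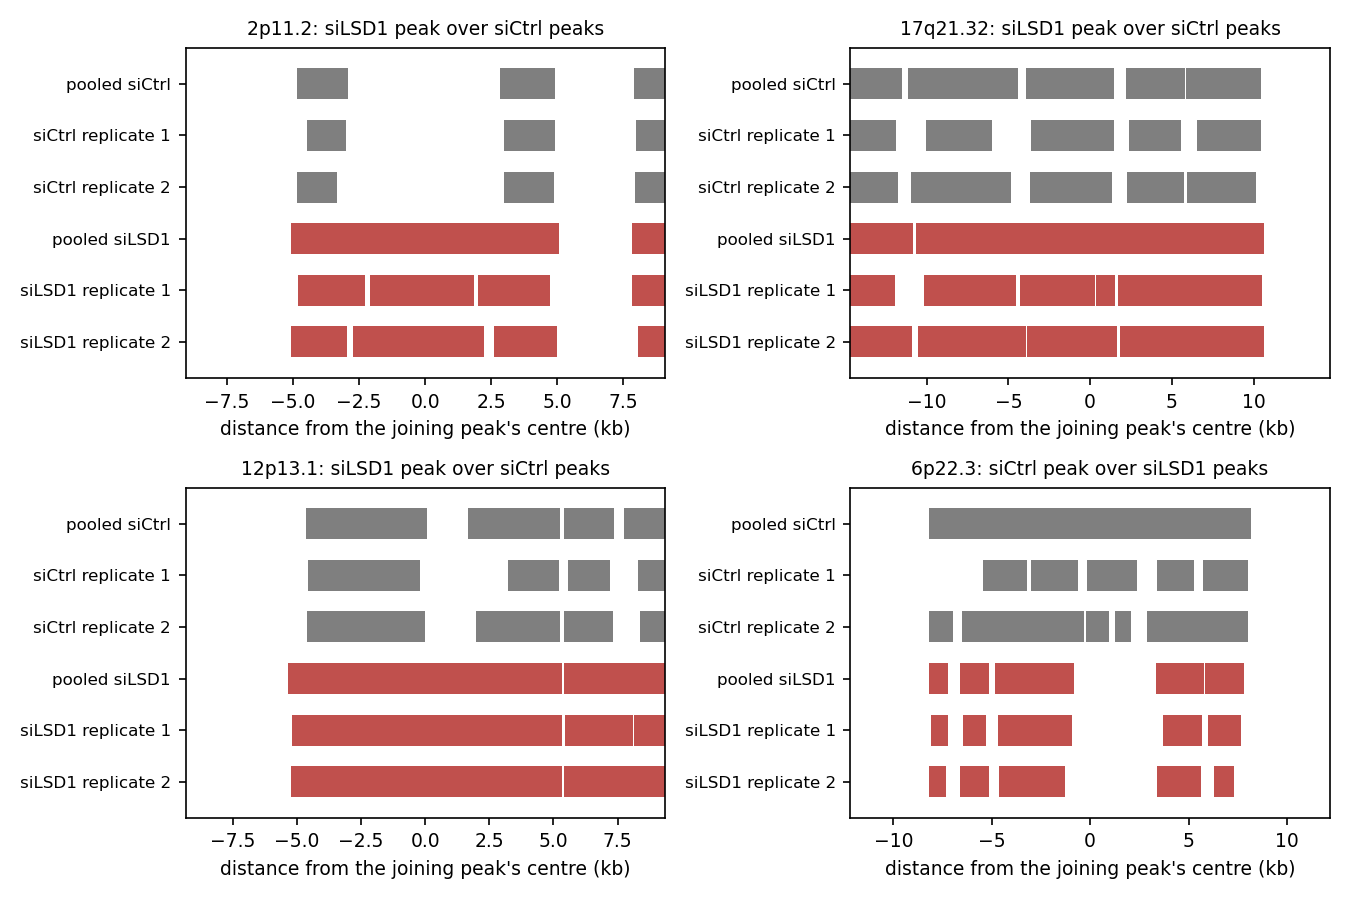
Peaks of the 2 pooled and 4 library lists (rows; grey siCtrl, red siLSD1) around 4 joining peaks, by distance in kb from the joining peak's centre, cut at 4 kb beyond its ends. In 2p11.2 the 5766-bp gap holds a separate peak in both siLSD1 libraries, in 12p13.1 both siLSD1 libraries run across the 1596-bp gap as 1 peak, and in 6p22.3 the pooled siCtrl peak spans 5 siLSD1 peaks.

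The members that joined 4 control peaks were 4. The one with the highest score lay in 17q21.32, the band of the HOXB homeobox cluster, whose genes set position along the body axis. It ran on chromosome 17 from 46644841 to 46666166 (21326 bp) and closed gaps of 522, 752 and 89 bp. Covered length was 16.1 and 18.5 kb after siCtrl and 20.3 and 20.9 kb after siLSD1. The 89-bp gap was closed by 1 peak in both siLSD1 libraries, and the 522-bp gap was covered over 411 and 492 bp in them and over 0 bp in both siCtrl libraries. In 15q25.1, chromosome 15 from 78355731 to 78371197, gaps of 237, 2053 and 530 bp were closed, with a covered length of 9.10 ± 1.49 kb after siCtrl and 15.0 ± 0.315 kb after siLSD1 (SD, n = 2 each), without overlap. In 2p14, chromosome 2 from 65583550 to 65601382, the gaps were 532, 480 and 51 bp, with 11.9 ± 1.43 kb against 15.7 ± 0.473 kb (SD, n = 2 each), again without overlap. The 4 libraries differed less in 4q22.3, chromosome 4 from 96459968 to 96473270. There siLSD1 replicate 1 had 11.1 kb in 7 peaks, between the siCtrl libraries with 10.7 and 11.6 kb, while siLSD1 replicate 2 had 12.4 kb in 2 peaks and closed all 3 gaps.

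Among members that joined 3 control peaks, the highest score was in 21q22.3, and 2p25.1 and 11q12.1 shared the next, 3100.00. In 11q12.1 the longest gap was 744 bp and no library closed all gaps. The peak in 21q22.3, a band that also carries the collagen VI genes COL6A1 and COL6A2, ran on chromosome 21 from 47390151 to 47401502 with gaps of 94 and 110 bp. Its covered length did not separate the groups, with 7.86 and 10.3 kb after siCtrl and 10.2 and 10.0 kb after siLSD1. In 2p25.1, chromosome 2 from 8817012 to 8826667, gaps of 103 and 109 bp were closed and covered length was 9.21 and 9.34 kb against 9.46 and 9.55 kb.

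Of the 200 members closed in both siLSD1 and in neither siCtrl library, 8 with the highest pooled score are given. Of the 200, 13 share the score 3100.00, and 7 of the 8 were taken in genome order among those. The same score was held by 47 of all members and 809 of the 56860 pooled siLSD1 peaks, so it does not rank these peaks. The longest of their gaps was in 12p13.1. There the siLSD1 peak ran on chromosome 12 from 13347669 to 13358354, and both siLSD1 libraries covered all 1596 bp while both siCtrl libraries covered 0 bp. Covered length was 6.35 and 7.85 kb after siCtrl and 10.5 and 10.6 kb after siLSD1. In 19p13.2, chromosome 19 from 13271883 to 13281642, a gap of 396 bp was closed, with 5.88 and 6.85 kb against 9.30 and 9.54 kb. In 7q32.1, chromosome 7 from 128043205 to 128051755, a gap of 361 bp was closed, with 7.47 and 7.17 kb against 8.55 and 8.40 kb.

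The other 5 had shorter gaps. In 2q14.2, chromosome 2 from 121484542 to 121504392, a gap of 242 bp was closed in a peak of 19851 bp. In 11q13.2, chromosome 11 from 68079140 to 68085776, the gap was 120 bp and covered length was 6.10 and 6.33 kb after siCtrl against 6.45 and 6.41 kb after siLSD1. The gaps in 10q26.3 (chromosome 10 from 131747488 to 131762693), 17q25.3 (chromosome 17 from 79365056 to 79381398) and 9q33.1 (chromosome 9 from 118913936 to 118920716) were 57, 56 and 10 bp. In 10q26.3 and 17q25.3 covered length overlapped between the groups.

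By number, the 4 highest scores among members were 3145.20 to 3208.85. Whether they rank above the score 3100.00 shared by 47 members is not known. These 4 members had short gaps, and none had every gap closed in both siLSD1 libraries. Over all members such closure was seen at only 18.4%. The peaks described just before had been chosen for it, so a contrast with them is built in. In 18q21.1, chromosome 18 from 43912793 to 43919399, a gap of 9 bp was closed in siLSD1 replicate 2 only. In 19p13.3, chromosome 19 from 1666305 to 1669939, the gap of 160 bp was closed in siLSD1 replicate 1 only, where covered length was 3.63 kb, while siLSD1 replicate 2 had 2.90 kb, less than the 3.04 and 3.10 kb of the siCtrl libraries. In 19q13.32, chromosome 19 from 47741986 to 47748891, no library closed the gap of 107 bp. The remaining one is the peak in 21q22.3 given above.

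The longest gap of the reverse class, 4187 bp, lay in 6p22.3. There the pooled siCtrl peak on chromosome 6 from 17276841 to 17293190 spanned 5 siLSD1 peaks, and covered length was 11.4 and 14.5 kb after siCtrl and 9.47 and 8.98 kb after siLSD1. In 17q22, chromosome 17 from 56607278 to 56617323, a siLSD1 gap of 2535 bp was closed, with 6.67 and 6.91 kb after siCtrl and 3.92 and 2.32 kb after siLSD1. In 1p13.3, chromosome 1 from 110033237 to 110042385, a gap of 2972 bp was closed by siCtrl replicate 2 alone. The joining siCtrl peak in 2q37.3, chromosome 2 from 242742189 to 242755630, had a score of 51.54, near the lowest of its list, and its gap of 3663 bp was closed by siCtrl replicate 1 alone. Covered length there overlapped between the groups, with 10.9 ± 3.23 kb against 7.46 ± 2.28 kb (SD, n = 2 each).

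Of reverse peaks closed in both siCtrl and in neither siLSD1 library, those with the highest score were in 7q36.2, 3p21.31, 22q12.3 and Xq28. Their gaps were 21, 23, 92 and 215 bp. In Xq28, chromosome X from 152756032 to 152763869, covered length was 5.85 and 6.38 kb after siCtrl and 4.38 and 4.75 kb after siLSD1. In 22q12.3, chromosome 22 from 36780682 to 36785552, it was 4.45 and 4.77 kb against 4.67 and 4.69 kb, which overlapped between the groups. In 3p21.31, chromosome 3 from 50272466 to 50276838, it also overlapped, with 4.10 and 4.24 kb against 3.21 and 4.35 kb. In 7q36.2, chromosome 7 from 155087454 to 155093084, it was 5.27 and 5.51 kb after siCtrl and 5.54 and 5.51 kb after siLSD1, not lower after siLSD1.

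Members lay on all 23 chromosomes. Chromosome X had the highest share of both classes, with 43 of 1204 siLSD1 peaks joining siCtrl neighbours (3.57%) and 92 of 1103 siCtrl peaks joining siLSD1 neighbours (8.34%). The share of members was lowest on chromosome 7, at 54 of 3409 (1.58%). Chromosome 20 had the highest count of members relative to the reverse class, with 43 against 17. Members also outnumbered the reverse class on chromosomes 7 (54 against 50), 17 (75 against 73), 19 (61 against 49) and 21 (22 against 15). As shares of their lists, chromosomes 7 (1.58% against 1.90%) and 17 (2.98% against 3.43%) went the other way. On chromosome 13 there were 23 members and 48 reverse peaks, and on chromosome 3 62 and 110. Light-staining bands, which are rich in genes, held 59.2% of members (exact 95% interval 56.4 to 62.0%) and 56.7% of all pooled siLSD1 peaks (56.3 to 57.1%).

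**Figure D5:**
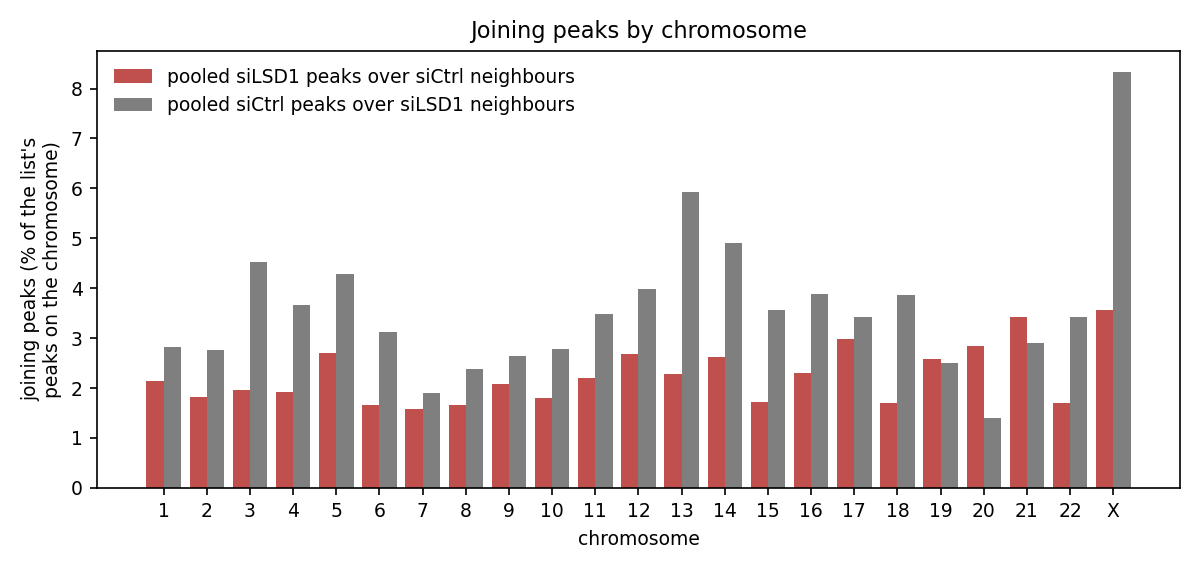
Joining peaks as a percent of all peaks of their pooled list on each chromosome, for siLSD1 peaks over siCtrl neighbours (red) and siCtrl peaks over siLSD1 neighbours (grey). The reverse class is the higher share on most chromosomes, most of all on X (8.34% against 3.57%), and chromosome 20 shows the opposite (1.39% against 2.84%).

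By band, most members were in 19p13.3 (19 of 480 siLSD1 peaks, 3.96%), 16p13.3 (15 of 338, 4.44%) and 21q22.3 (10 of 188, 5.32%), followed by 5 bands with 9 members each. These were 11q21 (9 of 101, 8.91%), 1q21.3 (9 of 153, 5.88%), 12q24.31 (9 of 245, 3.67%), 17q25.3 (9 of 293, 3.07%) and 1q32.1 (9 of 323, 2.79%), of which 17q25.3 also had 9 reverse peaks. In 16p13.3 the reverse class was larger, with 20 peaks. Among 474 bands with at least 50 siLSD1 peaks the highest shares were in 2q12.3 (5 of 51, 9.80%), 7q21.2 (5 of 52, 9.62%), 11q21, 6q15 (5 of 60, 8.33%) and 17q23.3 (4 of 52, 7.69%). In 2q12.3 the reverse class had 0 of 51 control peaks, and in 6q15 it had 5 of 57. Of the 474 bands, 83 held no member.

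Bands known for genes of this tumour and of adhesion were read next. A band holds many other genes, and which gene a peak lies in was not analysed here, since the reference at hand is on another build. Over all peaks, members made up 2.15% of the siLSD1 list and reverse peaks 3.37% of the siCtrl list. Bands of the homeobox clusters had 18 members among 562 siLSD1 peaks (3.20%) and 12 reverse peaks among 458 (2.62%). Counts of single bands rest on few peaks. The HOXB band 17q21.32 held 8 of these members and 1 reverse peak, and the HOXC band 12q13.13 held 6 and 4. The HOXD band 2q31.1 went the other way with 3 and 6, and the HOXA band 7p15.2 had 1 of each. The bands of muscle regulators had 26 members of 917 peaks (2.84%) and 22 reverse peaks of 700 (3.14%). Of these, 1q32.1, the band of the myogenic factor gene MYOG, had 9 and 8. Band 1p36.13 with the transcription factor gene PAX7 had 6 and 2, and 11p15.1 with the myogenic master regulator gene MYOD1 had 5 and 4. As shares of their lists, members were slightly fewer in 1q32.1 (2.79% against 3.08%) and 11p15.1 (3.57% against 3.64%). The PAX3 band 2q36.1 had 1 and 0. By count the other way went 5q14.3, the band of the muscle transcription factor gene MEF2C, with 4 and 5. So did 5q35.2, the band of the growth factor receptor gene FGFR4, with 1 and 3. The band of MYF5 and MYF6, 12q21.31, had 0 of either.

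The 12 bands of adhesion and matrix genes had 38 members of 1572 peaks (2.42%) and 38 reverse peaks of 1278 (2.97%), beside 2.15% and 3.37% over all peaks. Of the 12 bands, 4 had more members than reverse peaks, 6 had fewer and 2 had the same number. Band 16q22.1, with the cadherin genes CDH1 and CDH3, had 6 members and 7 reverse peaks, and 18q12.1, with CDH2 and the desmosomal cadherins, had 3 and 1. The protocadherin band 5q31.3 had 5 and 4, the collagen IV band 13q34 had 4 and 6, and the fibronectin band 2q35 had 3 and 3. Bands of the imprinted growth genes IGF2 and DLK1 had 4 members of 213 peaks (1.88%) and 7 reverse peaks of 181 (3.87%). The immediate early bands of JUN and FOS had 6 of 219 (2.74%) and 6 of 174 (3.45%). In 1p36.12, the band of KDM1A, there were 3 members among 139 peaks and 1 reverse peak among 106. These lists were chosen with earlier results of the same data known, and no enrichment was tested.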

How the data were processed

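ChIP libraries for H3K4me2 were made from RD cells, per the labels' protocols. The authors deposited 4 library lists and 2 pooled lists of peaks with a start, an end and a score. Reads were aligned with Bowtie to hg19, per the submitters' processing notes. The sources used here do not give its version, how replicates were pooled, or the settings of MACS, which the peak names carry. From the values, with a minimum of 50, the deposited score looks like 10 times the negative log10 of a p-value, and it was used within lists only. A pooled list depends on depth and on the peak caller's merging, so a gap may reflect either.

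Peaks on chromosomes 1 to 22 and X were kept, which left out 3 to 85 peaks per list. Whether starts count from 0 or 1 is not stated; they were assumed to count from 0 and are printed counted from 1, and a shift of 1 bp would change which peaks pass at a 1-bp overlap. Joining and closing, with an overlap of 1 bp, were computed in Python 3.11.15 with numpy 2.4.6, pandas 2.3.3 and scipy 1.17.1, and figures drawn with matplotlib 3.10.9. On simulated lists 140 of 140 joins were recovered with 0 false. Bands came from circlize 0.4.16 (R 4.3.3). Intervals are exact (95%).

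The members and lists were chosen with earlier results of these data known. Named peaks are the 6 with the longest gap, the 6 joining most control peaks, the 8 of highest score closed in both siLSD1 and in neither siCtrl library, the 4 of highest score, and 4 and 4 of the reverse class. Bands were named by most members and by highest share. The order of peaks with tied scores, the excess at gaps of 500 bp or more and leaving out staggered edges were chosen after the values were seen. Sequences were not used here.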

Additional observations from a re-analysis of the deposited data

How the results depend on the processing

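No paired analysis was possible because the results come from no test, so no fit could hold a replicate block; lists with the same replicate number were only set side by side. The pooled lists cannot be rebuilt without a library. In the order joined peaks, reverse peaks, their ratio, the median closed gap and the ratio of gaps of 500 bp or more (1225, 1525, 0.803, 144 bp and 2.34), the upper 50% of each list by score gave 380, 768, 0.495, 98 bp and 1.55. Merging neighbours under 500 bp apart first gave 678, 369, 1.84 and 928 bp, the only pooled setting that turned the first ratio; merging under 100 bp gave 961 reverse peaks, 0.909 and 350 bp. Equal numbers gave ratios of 0.960 and 3.04. The median gap was 163 bp with an overlap of 100 bp, 166 bp with 50% of the shorter peak, and 164 bp without members that share a neighbour with the other class. Single lists gave 2307 reverse peaks, 0.626, 95 bp and 1.14 for replicates 1, and 0.633, 93 bp and 1.24 for replicates 2. Without chromosome X the first ratio was 0.825 and the last 2.43. The gain of closed gaps in siLSD1 over siCtrl libraries, 38.3 percentage points, ran from 28.1 to 48.5 without single libraries and was 34.6 with equal numbers. The ratio of joins between single libraries, 0.627, ran from 0.376 to 1.09 without single libraries. The cause of these shifts was not tested, and unknown depth limits every count of joins.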
